A study of Homo sapiens with 30 samples.

Results

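The 10 genes here encode chaperones, a folding enzyme, a degradation factor and a stress sensor of the endoplasmic reticulum (ER), and a transcription factor. They are HSPA5, HSP90B1, DNAJB9, SDF2L1, HERPUD1, XBP1, PDIA4, CALR, DNAJC3 and ERN1. They were chosen by symbol, as genes assigned to the ATF6 and XBP1 arms of the unfolded protein response (UPR) and set against the targets of ATF4. All 10 were found once each among the 60107 genes of the count table, and all 10 passed the filter on low counts at both time points.

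The cells were HepG2, a human liver cancer line in long-standing laboratory use, and a single line stands for the tumour here. Each culture received 1 of 5 oligonucleotides by lipid transfection. At the 6 h time point these were a control for inhibitors (IC) or the miR-200c-3p inhibitor (I200c), and at the 24 h time point a control for mimics (MC), the miR-222-5p mimic (M222) or the miR-512-3p mimic (M512). Sorafenib, a multikinase inhibitor, was given at 10 µM 24 h after transfection, and control cultures received only its solvent dimethyl sulfoxide (DMSO). RNA was taken 6 h later (IC_DMSO, IC_sorafenib, I200c_DMSO and I200c_sorafenib) or 24 h later (MC_DMSO, MC_sorafenib, M222_DMSO, M222_sorafenib, M512_DMSO and M512_sorafenib), with 3 biological replicates in each of the 10 groups. Every group was therefore transfected, and no untransfected or untreated culture was analysed here. The 6 h and 24 h experiments had different control oligonucleotides, so duration and type of control cannot be told apart.

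The ER lumen holds the chaperones and disulfide isomerases that fold secreted and membrane proteins. When unfolded proteins build up, 3 sensors of the ER membrane respond. ATF6 is cut in the Golgi and becomes a transcription factor for chaperone genes, IRE1 alpha (the product of ERN1) splices XBP1 mRNA so that it encodes a potent activator of folding and degradation genes, and PERK phosphorylates eIF2 alpha, which lowers general translation and raises that of ATF4. ATF4 is shared with other kinases that sense amino acid loss, haem loss or viral RNA, and its targets serve amino acid supply, redox balance and cell death. Hepatocytes secrete large amounts of plasma protein and carry an abundant ER.

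The ATF6 and XBP1 factors are known to bind ER stress elements in promoters. The ERSE has the letters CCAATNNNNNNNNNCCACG, the ERSE-II has ATTGGNCCACG and the XBP1 site or UPRE has TGACGTGG, while the composite site of ATF4 with C/EBP factors (CARE) has TGATGNAA. The first 3 overlap in letters, since ERSE and ERSE-II both end in CCACG and the reverse strand of the UPRE begins with it. Both strands of the RefSeq promoter windows (GRCh38.p14, 250 bases before to 50 after the start of transcription) were searched, and all 10 genes were matched by symbol, with 12 windows. An ERSE was in the windows of HSPA5, HSP90B1, XBP1 and CALR, that is 4 of the 10 genes, against 0.0769% of all 35116 windows. An ERSE-II was in those of HERPUD1 and SDF2L1, against 0.0541% of all windows. A CARE was in that of HERPUD1 alone, against 3.62% of all windows, and a UPRE was in none of the 10, against 0.729% of all. These letters were not found in the windows of ERN1, DNAJC3, DNAJB9 and PDIA4. The genes were chosen for the ATF6 and XBP1 arms, and the elements are known sites of these factors. The shares therefore describe the windows and are no test of enrichment. The matches are shown so that the response of each gene to 24 h of sorafenib can be read beside them. Each is written 5′ to 3′ along the strand of the match, with the fixed letters of the element in capitals.
HSPA5 ERSE: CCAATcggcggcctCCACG
HSP90B1 distal ERSE: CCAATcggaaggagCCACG
HSP90B1 proximal ERSE: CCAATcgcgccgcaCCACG
XBP1 ERSE: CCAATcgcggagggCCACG
CALR ERSE: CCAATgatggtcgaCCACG
HERPUD1 ERSE-II: ATTGGgCCACG
SDF2L1 ERSE-II: ATTGGtCCACG
HERPUD1 CARE: TGATGcAA

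Whole windows are given for HSPA5, a chaperone gene that did not pass the test of sorafenib against DMSO, and HERPUD1, a degradation gene that rose. Bases are on the strand of the gene (minus for HSPA5, plus for HERPUD1), with each matched element in capitals from its first to its last base. In HERPUD1 the first capitals are the CARE, which lies on the opposite strand and so reads in reverse, and the second are the ERSE-II.
HSPA5 chr9:125241294-125241593: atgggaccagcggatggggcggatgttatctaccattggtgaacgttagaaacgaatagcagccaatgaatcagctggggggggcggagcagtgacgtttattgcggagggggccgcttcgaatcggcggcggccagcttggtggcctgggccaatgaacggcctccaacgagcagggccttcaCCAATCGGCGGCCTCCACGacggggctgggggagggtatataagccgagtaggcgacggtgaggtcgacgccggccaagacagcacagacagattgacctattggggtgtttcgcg
HERPUD1 chr16:56931892-56932191: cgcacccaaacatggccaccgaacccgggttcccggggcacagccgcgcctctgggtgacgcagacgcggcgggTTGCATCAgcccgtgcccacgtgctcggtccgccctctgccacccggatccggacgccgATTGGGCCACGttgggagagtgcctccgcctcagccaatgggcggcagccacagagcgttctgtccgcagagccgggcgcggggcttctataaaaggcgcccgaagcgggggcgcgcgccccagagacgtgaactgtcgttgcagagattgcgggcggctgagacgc

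The transfected microRNAs are shown for their seed (bases 2 to 8, in capitals), the part that pairs with 3′ untranslated regions (UTRs). The 3 seeds differ from each other.
hsa-miR-200c-3p: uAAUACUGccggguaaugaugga
hsa-miR-222-5p: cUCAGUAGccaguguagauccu
hsa-miR-512-3p: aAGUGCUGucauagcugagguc
In the UTRs of the GENCODE transcripts, the site of miR-200c-3p (CAGTATT) occurred once in DNAJB9 and 2 times each in DNAJC3 and ERN1, against 16.2% of all 19206 UTRs with it. The site of miR-222-5p (CTACTGA) occurred once each in HSPA5 and DNAJB9, against 9.25% of all UTRs. The site of miR-512-3p (CAGCACT) occurred once in CALR and in no other of the 10, against 19.7% of all UTRs.

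Total counts were 3938764 to 9657063 per library (median 6460786). Levels are given as counts scaled to a library of 1000000 (CPM), after TMM scaling over all 30 libraries. QuantSeq reads 1 fragment at the 3′ end of each transcript, so CPM can be set side by side between genes without division by length. The hepatocyte genes ALB, AFP and APOB were at 679 CPM or more in every library. The summed level of 8 hepatocyte genes (with APOA1, TTR, SERPINA1, TF and GPC3) nevertheless moved with the groups at 24 h. It was 12782.5 to 14677.0 CPM in MC_DMSO and 9175.8 to 11257.2 in MC_sorafenib, 11607.7 to 14192.7 in M222_DMSO and 7471.8 to 10399.4 in M222_sorafenib, and 16611.8 to 17528.9 in M512_DMSO and 9310.0 to 11322.2 in M512_sorafenib. Of the 8, all sorafenib libraries were below all DMSO libraries for 4 in MC, 2 in M222 and 5 in M512. APOB was among them each time and 0 were above, while at 6 h all 8 overlapped in IC and in I200c. The share of all genes without such overlap was not counted, so these numbers are descriptions. The part of these shifts in the values of the 10 genes was not tested. The leukocyte gene PTPRC had at most 1 count in a library, and the fibroblast gene COL1A1 had at most 77, with 62, 77 and 73 in M512_DMSO against 0, 9 and 32 in M512_sorafenib. The endothelial gene PECAM1 had at most 20. In bulk libraries, a lower level may mean fewer cells that make a transcript or less transcript in each cell, and these cannot be told apart.

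The 10 genes fell into abundant chaperones and scarce regulators. HSPA5 (ENSG00000044574, chr9:125234853-125241382), which encodes BiP, the Hsp70 chaperone of the ER lumen, ranged from 779 to 1791 CPM over the 30 libraries. HSP90B1 (ENSG00000166598, chr12:103930107-103953931), the ER Hsp90 known as GRP94, ranged from 708 to 1348 CPM. CALR (ENSG00000179218, chr19:12938578-12944489), the lectin chaperone calreticulin, ranged from 572 to 1095 CPM.

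Below these lay an intermediate set. XBP1 (ENSG00000100219, chr22:28794555-28800597), the transcription factor gene whose mRNA IRE1 alpha splices, ranged from 112 to 224 CPM, and reads at its 3′ end do not separate the spliced from the unspliced form. PDIA4 (ENSG00000155660, chr7:149003062-149028662), a disulfide isomerase, ranged from 81.0 to 169 CPM. SDF2L1 (ENSG00000128228, chr22:21642302-21644299), a partner of the BiP and DNAJB11 complex, ranged from 58.3 to 205 CPM.

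HERPUD1 and the co-chaperones were lower. HERPUD1 (ENSG00000051108, chr16:56932142-56944864), a membrane protein of the ER-associated degradation machinery, ranged from 40.7 to 170 CPM. DNAJC3 (ENSG00000102580, chr13:95677139-95794988), the BiP co-chaperone p58IPK, ranged from 32.6 to 86.9 CPM. DNAJB9 (ENSG00000128590, chr7:108569867-108574850), the co-chaperone ERdj4 that keeps IRE1 alpha inactive, ranged from 4.96 to 55.0 CPM, or 22 to 442 counts.

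ERN1 (ENSG00000178607, chr17:64039080-64130819), the gene of the sensor IRE1 alpha, ranged from 3.30 to 56.4 CPM, or 16 to 445 counts, and its median of 75.5 counts lay next to the 67.0 of DNAJB9 at the bottom of the set. The scarce genes thus had the widest relative range, and their counts were also the fewest. Positions are from GENCODE release 44 on GRCh38. In the last 500 bases of its transcript, CALR overlaps the exons of 1 lncRNA on the opposite strand, and the other 9 genes overlap no other gene there. The handling of strand in the counting is not given in the sources used here, so reads of CALR and of that lncRNA cannot be told apart.

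**Figure D1:**
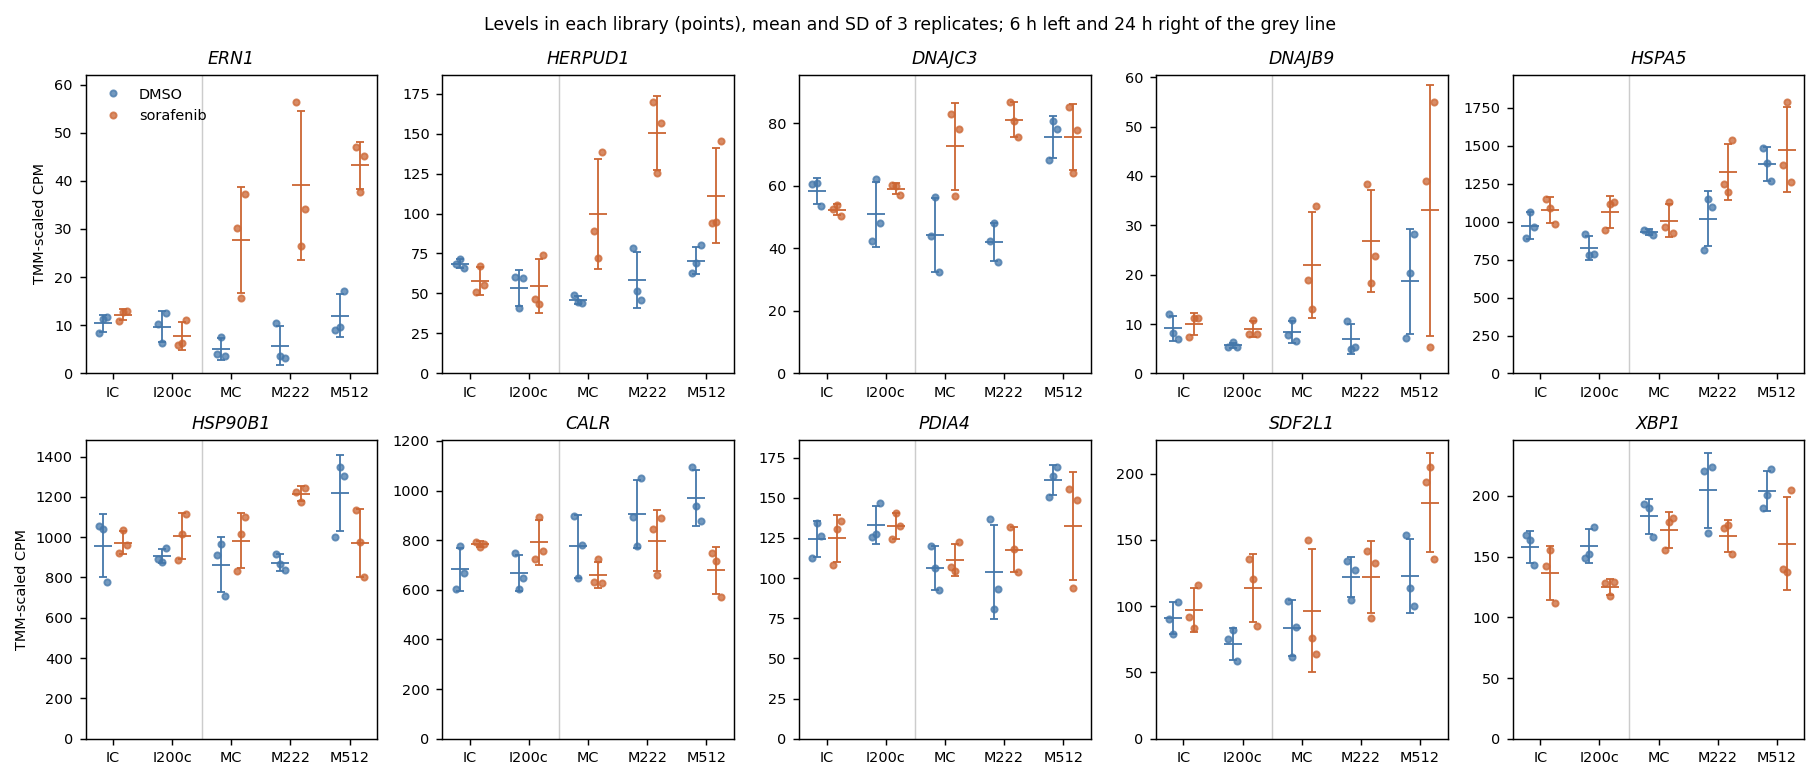
Level of each of the 10 genes (vertical axis, TMM-scaled CPM from 0) in each library (points), with the mean and SD of 3 replicates, for DMSO (blue) and sorafenib (orange) in the 5 transfections (horizontal axis). Within each of MC, M222 and M512, all sorafenib libraries lie above all DMSO libraries of the same transfection for ERN1 and HERPUD1. Most points of HSPA5, HSP90B1, PDIA4 and XBP1 overlap.

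The first question was what 24 h of sorafenib did to these genes. Averaged over MC, M222 and M512, ERN1, DNAJB9, HERPUD1 and DNAJC3 rose and CALR fell, while HSPA5, HSP90B1, SDF2L1, XBP1 and PDIA4 did not pass the test (edgeR quasi-likelihood F test, Benjamini-Hochberg adjusted p under 0.05). Thus 4 of the 10 were higher and 1 was lower, against 25.8% of all 13244 tested genes called in either direction and 13.4% called higher. The call of CALR was kept in only 5 of the 18 fits that left out 1 library. Those of the other 4 were kept in all 18. The median log2 fold change of the 10 genes was 0.22 and that of all genes -0.04. The 4 that rose span a sensor, a degradation factor and BiP co-chaperones, and the 3 most abundant chaperones were not among them.

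ERN1 changed most. In MC_DMSO it was at 3.94, 7.62 and 3.62 CPM, and in MC_sorafenib at 30.2, 15.7 and 37.3 CPM. In M222_DMSO it was at 10.4, 3.61 and 3.30 CPM, and in M222_sorafenib at 56.4, 26.6 and 34.2 CPM. In M512_DMSO it was at 9.08, 9.74 and 17.1 CPM, and in M512_sorafenib at 47.0, 37.7 and 45.1 CPM. All 9 sorafenib libraries were above the DMSO libraries of their own transfection, without overlap. The log2 fold change was 2.50 (SE 0.44) in MC, 2.70 (SE 0.44) in M222 and 1.85 (SE 0.42) in M512, with edgeR Benjamini-Hochberg adjusted p of 0.00196, 0.000715 and 0.00519. Averaged over the 3 transfections, ERN1 was 5.10-fold higher (log2 fold change 2.35, SE 0.25, Benjamini-Hochberg adjusted edgeR p 2.23e-07).

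HERPUD1 likewise separated the treatments. In MC_DMSO it was at 49.1, 44.7 and 44.1 CPM, and in MC_sorafenib at 89.0, 72.0 and 138 CPM. In M222_DMSO it was at 78.1, 51.4 and 45.8 CPM, and in M222_sorafenib at 170, 125 and 156 CPM. In M512_DMSO it was at 62.8, 69.0 and 80.0 CPM, and in M512_sorafenib at 93.8, 94.6 and 145 CPM. The groups did not overlap within any of the 3 transfections. HERPUD1 rose in MC (log2 fold change 1.12, SE 0.25, Benjamini-Hochberg adjusted edgeR p 0.0120) and in M222 (1.35, SE 0.25, adjusted p 0.00235), and in M512 the value was 0.65 (SE 0.24) with an adjusted p of 0.0889. Averaged, it was 2.06-fold higher (log2 fold change 1.04, SE 0.14, Benjamini-Hochberg adjusted edgeR p 7.90e-06). Without MC_DMSO replicate 3, HERPUD1 was no longer called in MC (Benjamini-Hochberg adjusted edgeR p 0.0871), nor was it without MC_sorafenib replicate 3 (0.168).

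DNAJC3 was higher with sorafenib in the mimic control and in M222 but level in M512. In MC_DMSO it was at 43.9, 56.3 and 32.6 CPM, and in MC_sorafenib at 83.0, 56.7 and 78.1 CPM. The M222_DMSO libraries had 42.2, 48.1 and 35.7 CPM, and the M222_sorafenib libraries 86.9, 80.8 and 75.6 CPM. The M512_DMSO libraries had 68.1, 80.8 and 78.1 CPM, and the M512_sorafenib libraries 85.1, 64.2 and 77.7 CPM. The M512 groups overlapped, and the M512_DMSO libraries already lay above every DMSO library of MC and M222. The log2 fold change was 0.73 (SE 0.22, Benjamini-Hochberg adjusted edgeR p 0.0770) in MC, 0.94 (SE 0.22, adjusted p 0.0141) in M222 and 0.00 (SE 0.22, adjusted p 0.995) in M512. The difference between M512 and MC in this effect was -0.72 (SE 0.31) and did not pass the interaction test (Benjamini-Hochberg adjusted edgeR p 0.952). The call in M222 was lost without M222_DMSO replicate 3 (Benjamini-Hochberg adjusted edgeR p 0.0913) or M222_sorafenib replicate 1 (0.0633). In MC, DNAJC3 passed with DESeq2 (Benjamini-Hochberg adjusted p 0.0350), and with edgeR once MC_DMSO replicate 2 (0.0323) or MC_sorafenib replicate 2 (0.0310) was left out. Averaged over the 3 transfections it rose (log2 fold change 0.56, SE 0.13, Benjamini-Hochberg adjusted edgeR p 0.00203).

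DNAJB9 had wide replicate spread in M512. In MC_DMSO it was at 7.76, 10.8 and 6.66 CPM, and in MC_sorafenib at 18.9, 13.1 and 33.9 CPM. The M222_DMSO libraries had 10.6, 4.96 and 5.38 CPM, and the M222_sorafenib libraries 38.4, 18.4 and 23.8 CPM. The M512_DMSO libraries had 7.22, 20.4 and 28.3 CPM, and the M512_sorafenib libraries 38.9, 5.27 and 55.0 CPM. The groups did not overlap in MC or M222, and in M512 the second sorafenib replicate lay below all 3 DMSO libraries. No single transfection passed in this fit, with log2 fold changes of 1.41 (SE 0.57) in MC, 1.92 (SE 0.58) in M222 and 0.83 (SE 0.55) in M512 and edgeR Benjamini-Hochberg adjusted p of 0.197, 0.0574 and 0.379. Averaged, DNAJB9 rose 2.61-fold (log2 fold change 1.38, SE 0.33, Benjamini-Hochberg adjusted edgeR p 0.00280), and it stayed called when any 1 of the 18 libraries was left out. With no filter on low counts DNAJB9 passed in MC (log2 fold change 1.41, Benjamini-Hochberg adjusted edgeR p 0.00869) and in M222 (1.92, 3.77e-05). Without M512_sorafenib replicate 2, the value in M512 was 1.33 (Benjamini-Hochberg adjusted edgeR p 0.0704), and without M512_sorafenib replicate 3 it was 0.25 (0.844). Without M512_DMSO replicate 1 it was 0.44 (Benjamini-Hochberg adjusted edgeR p 0.743), and without M512_DMSO replicate 3 it was 1.30 (0.250).

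**Figure D2:**
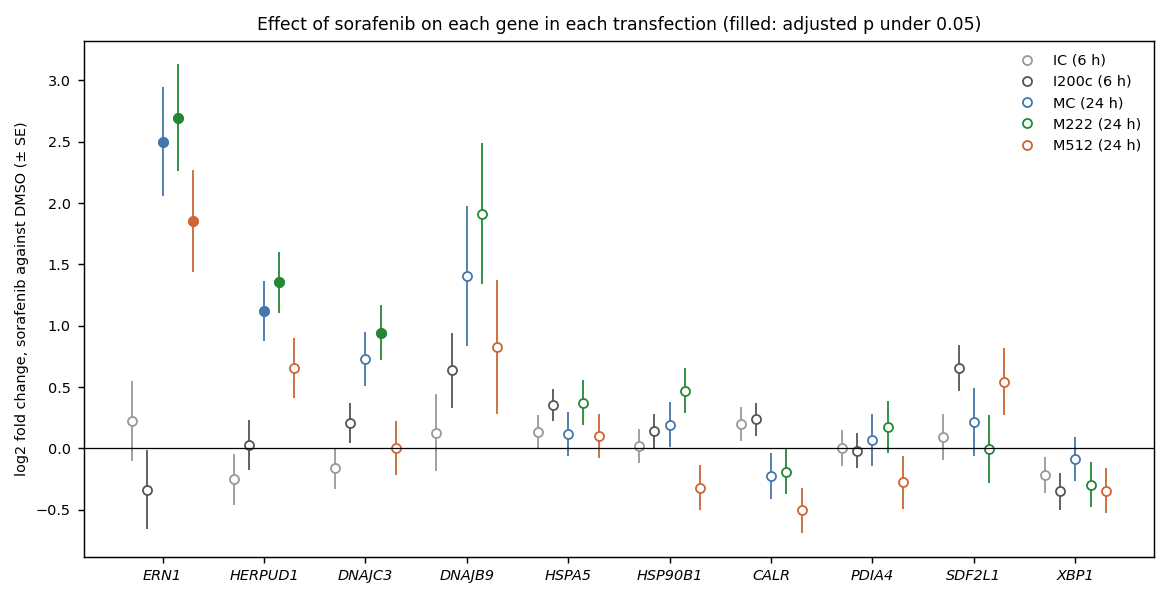
Log2 fold change of sorafenib against DMSO (vertical axis, ± SE from the edgeR fit) for each of the 10 genes (horizontal axis) in the 5 transfections (colours), with filled points for a Benjamini-Hochberg adjusted p under 0.05. The filled points are ERN1 in MC, M222 and M512, HERPUD1 in MC and M222, and DNAJC3 in M222, while the 6 h values of IC and I200c lie between -0.35 and 0.66.

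The abundant chaperones moved little. HSPA5, the usual marker of ATF6 activity, was at 948, 935 and 914 CPM in MC_DMSO and at 965, 1130 and 926 CPM in MC_sorafenib. Values were 812, 1150 and 1099 CPM in M222_DMSO and 1251, 1195 and 1539 CPM in M222_sorafenib. Values were 1485, 1389 and 1266 CPM in M512_DMSO and 1371, 1791 and 1260 CPM in M512_sorafenib. The groups overlapped in MC and M512 but not in M222. The average log2 fold change was 0.20 (SE 0.10), a 1.15-fold difference that did not pass (Benjamini-Hochberg adjusted edgeR p 0.173), and no alternative setting made it pass.

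HSP90B1 was at 911, 968 and 708 CPM in MC_DMSO and at 833, 1016 and 1099 CPM in MC_sorafenib. Values were 918, 865 and 836 CPM in M222_DMSO and 1226, 1175 and 1245 CPM in M222_sorafenib. Values were 1001, 1348 and 1302 CPM in M512_DMSO and 1136, 975 and 800 CPM in M512_sorafenib. Only in M222 were the groups apart, and in M512 the mean was lower with sorafenib. The log2 fold changes were 0.19 (SE 0.18), 0.47 (SE 0.18) and -0.32 (SE 0.18) in MC, M222 and M512, and their average was 0.11 (SE 0.11, Benjamini-Hochberg adjusted edgeR p 0.458).

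CALR was at 899, 646 and 780 CPM in MC_DMSO and at 632, 722 and 628 CPM in MC_sorafenib. Values were 895, 775 and 1049 CPM in M222_DMSO and 846, 659 and 891 CPM in M222_sorafenib. Values were 1095, 937 and 876 CPM in M512_DMSO and 750, 716 and 572 CPM in M512_sorafenib. The groups overlapped in MC and M222, and in M512 all 3 sorafenib libraries were the lower ones. The log2 fold change was -0.23 (SE 0.19) in MC, -0.19 (SE 0.19) in M222 and -0.51 (SE 0.19) in M512, none of which passed. Averaged, CALR fell (log2 fold change -0.31, SE 0.11, Benjamini-Hochberg adjusted edgeR p 0.0364). The call depended on single libraries, since it was lost in 13 of the 18 fits that left out 1 library, the exceptions being MC_DMSO replicate 2, M222_DMSO replicates 1 and 2 and M512_sorafenib replicates 1 and 2, with values of -0.32 to -0.24 (Benjamini-Hochberg adjusted edgeR p 0.0334 to 0.135).

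PDIA4, SDF2L1 and XBP1 did not pass in any transfection at 24 h. PDIA4 had log2 fold changes between -0.28 (SE 0.21, M512) and 0.18 (SE 0.21, M222), and the average was -0.01 (SE 0.12, Benjamini-Hochberg adjusted edgeR p 0.960). SDF2L1 was at 154, 113 and 100.4 CPM in M512_DMSO and at 194, 205 and 136 CPM in M512_sorafenib, where it was highest among all groups. Its average log2 fold change was 0.25 (SE 0.16, Benjamini-Hochberg adjusted edgeR p 0.260). XBP1 had negative values in all 5 transfections, from -0.35 (SE 0.15, I200c) to -0.09 (SE 0.18, MC), and its 24 h average was -0.24 (SE 0.11, Benjamini-Hochberg adjusted edgeR p 0.0926). Without M512_sorafenib replicate 3 XBP1 passed as lower (log2 fold change -0.32, Benjamini-Hochberg adjusted edgeR p 0.0236), and it also passed with DESeq2 (-0.25, Benjamini-Hochberg adjusted p 0.0472) and with total counts in place of TMM (-0.37, adjusted edgeR p 0.0167).

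Set beside the promoter elements shown above, none of the 4 genes with an ERSE rose on average at 24 h. HSPA5 (log2 fold change 0.20), HSP90B1 (0.11) and XBP1 (-0.24) did not pass, and CALR (-0.31) fell, with a call that depended on single libraries. Of the pair with an ERSE-II, HERPUD1, whose window also holds the CARE, rose (log2 fold change 1.04), and SDF2L1 did not pass (0.25). Of the 4 genes in whose windows no searched element was found, ERN1 (log2 fold change 2.35), DNAJB9 (1.38) and DNAJC3 (0.56) rose, and PDIA4 (-0.01) did not pass. These are descriptions of 300-base windows, and no relation between element and response was tested.

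The effect of 6 h of sorafenib was asked in the inhibitor experiment. None of the 10 genes passed in IC, in I200c or on average by edgeR, against 0.0393%, 2.28% and 2.89% of all 12738 tested genes. At an unadjusted p under 0.05 there were 0 of the 10 in IC, 3 in I200c and 4 on average. Over all 12738 tested genes these numbers were 481, 1945 and 1962. DESeq2 called 0, 1 and 0 of the 10, against 35, 541 and 550 of all genes. ERN1 was at 8.44, 11.3 and 11.7 CPM in IC_DMSO and at 11.0, 12.7 and 13.0 CPM in IC_sorafenib. It was at 10.3, 6.31 and 12.6 CPM in I200c_DMSO and at 5.96, 6.26 and 11.0 CPM in I200c_sorafenib. The groups overlapped in both, and the average log2 fold change of ERN1 was -0.06 (SE 0.23).

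SDF2L1 came closest to passing at 6 h. It was at 75.1, 81.8 and 58.3 CPM in I200c_DMSO and at 136, 120 and 85.2 CPM in I200c_sorafenib, without overlap (log2 fold change 0.66, SE 0.19, Benjamini-Hochberg adjusted edgeR p 0.0677). It passed with DESeq2 (Benjamini-Hochberg adjusted p 0.0299), and with edgeR once I200c_DMSO replicate 2 (0.0395) or I200c_sorafenib replicate 3 (0.0229) was left out. In IC the SDF2L1 groups overlapped (log2 fold change 0.10, SE 0.19). HSPA5 was at 920, 779 and 787 CPM in I200c_DMSO and at 945, 1120 and 1133 CPM in I200c_sorafenib, again without overlap (log2 fold change 0.36, SE 0.13, Benjamini-Hochberg adjusted edgeR p 0.177). HERPUD1, which rose at 24 h, had values of -0.25 (SE 0.21) in IC and 0.03 (SE 0.21) in I200c, and DNAJC3 of -0.16 (SE 0.17) and 0.21 (SE 0.16). DNAJB9 was at 5.37, 6.31 and 5.45 CPM in I200c_DMSO and at 7.98, 10.8 and 8.07 CPM in I200c_sorafenib, without overlap (log2 fold change 0.64, SE 0.31, Benjamini-Hochberg adjusted edgeR p 0.337), and in IC its groups overlapped (0.13, SE 0.31). XBP1 went the other way without overlap, at 149.1 to 174.7 CPM in I200c_DMSO and 117.8 to 129.4 CPM in I200c_sorafenib. How many of all genes separate the treatments in this way was not counted at 6 h or at 24 h, so these orders are descriptions.

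Whether the sorafenib effect differed between the control transfections at 24 h (MC) and 6 h (IC) was tested as an interaction. None of the 10 genes passed by edgeR, against 0.216% of all 12500 tested genes. An unadjusted p under 0.05 was found for 5 of the 10, against 1709 of the 12500. The difference in log2 fold change was 2.26 (SE 0.49) for ERN1 and 1.35 (SE 0.29) for HERPUD1, each with an edgeR Benjamini-Hochberg adjusted p of 0.0728. DESeq2 called both, among 259 genes in all, with Benjamini-Hochberg adjusted p of 0.00351 and 0.00434. Both also passed with edgeR without MC_DMSO replicate 2 (Benjamini-Hochberg adjusted p 0.0176 for ERN1 and 0.0498 for HERPUD1) or without MC_sorafenib replicate 2 (0.0103 and 0.0107). DNAJB9 (difference 1.26, SE 0.50), DNAJC3 (0.87, SE 0.28) and CALR (-0.45, SE 0.21) did not pass with either tool. For HSPA5 the difference was -0.05 (SE 0.18).

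The oligonucleotides by themselves were compared with their controls. None of the 10 genes passed by edgeR in any of these comparisons. For I200c against IC, this stood against 0.0157% of all genes in DMSO and 0.00% in sorafenib. An unadjusted p under 0.05 was found for 0 and 0 of the 10, against 667 and 273 of all 12738. For M222 against MC, the absence of calls stood against 0.00% in DMSO and 0.00% in sorafenib. Here 0 and 2 of the 10 had an unadjusted p under 0.05, against 737 and 800 of all 13244. HSPA5 and DNAJB9, whose UTRs hold the site of miR-222-5p, had log2 fold changes of 0.12 (SE 0.18) and -0.23 (SE 0.58) in M222_DMSO against MC_DMSO, and of 0.38 (SE 0.18, Benjamini-Hochberg adjusted edgeR p 0.804) and 0.28 (SE 0.55, adjusted p 0.994) in M222_sorafenib against MC_sorafenib. With the replicate block, M222 against MC in DMSO gave 3 calls among all genes and 0 among the 10. DNAJB9, DNAJC3 and ERN1, whose UTRs hold the site of miR-200c-3p, had values of -0.66 (SE 0.32), -0.18 (SE 0.17) and -0.08 (SE 0.33) in I200c_DMSO against IC_DMSO, and of -0.15 (SE 0.30), 0.19 (SE 0.16) and -0.64 (SE 0.32) in sorafenib.

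In DMSO, the fitted values of M512 against MC had a common sign. All 10 genes had a positive log2 fold change under every scaling tried, from 0.14 for XBP1 to 1.27 for ERN1, with a median of 0.57 against -0.01 over all genes. None of the 10 passed by edgeR, against 0.634% of all genes. An unadjusted p under 0.05 was found for 6 of the 10, against 1385 of all 13244. DESeq2 called 1 of the 10, DNAJC3, and 232 of all genes. DNAJC3 had a log2 fold change of 0.77 (SE 0.22, Benjamini-Hochberg adjusted edgeR p 0.130), and the 3 M512_DMSO libraries given above lay above the 3 of MC_DMSO. HSPA5 likewise did not overlap between the groups (log2 fold change 0.55, SE 0.18, Benjamini-Hochberg adjusted edgeR p 0.208). PDIA4 was at 150, 163 and 169 CPM in M512_DMSO and at 120, 106 and 92.8 CPM in MC_DMSO, also without overlap (log2 fold change 0.58, SE 0.21, Benjamini-Hochberg adjusted edgeR p 0.279). The same held for HSP90B1, HERPUD1 and ERN1, while DNAJB9, SDF2L1, XBP1 and CALR overlapped. The share of all genes without such overlap was not counted, so these orders are descriptions. CALR, whose UTR holds the site of miR-512-3p, had a log2 fold change of 0.31 (SE 0.19) in DMSO and 0.03 (SE 0.19) in sorafenib.

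The fibroblast gene COL1A1 also moved between these groups, with 62, 77 and 73 counts in M512_DMSO against 0, 17 and 28 in MC_DMSO. ALB and AFP were higher in all M512_DMSO than in all MC_DMSO libraries, as was 1 more of the 8 hepatocyte genes, with 2 lower. How many of all genes separate these groups in this way was not counted. The part of these markers in the values of the 10 genes was not tested. In sorafenib, 8 of the 10 genes (6 with total counts in place of TMM) had a positive value in M512 against MC, with a median of 0.19 against -0.01 over all genes. None passed by edgeR, against 0.355% of all genes. An unadjusted p under 0.05 was found for 2 of the 10, against 1465 of all 13244. DESeq2 called 0 of the 10 and 237 of all genes. SDF2L1 had the largest of these differences (log2 fold change 0.86, SE 0.28, Benjamini-Hochberg adjusted edgeR p 0.192), and it passed without MC_sorafenib replicate 1 (1.36, adjusted p 0.0330). HSPA5 had 0.53 (SE 0.18, Benjamini-Hochberg adjusted edgeR p 0.216). The comparisons of M222 and of M512 with MC share the MC libraries. A sorafenib effect and a comparison between oligonucleotides share libraries where both use the same group.

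**Figure D3:**
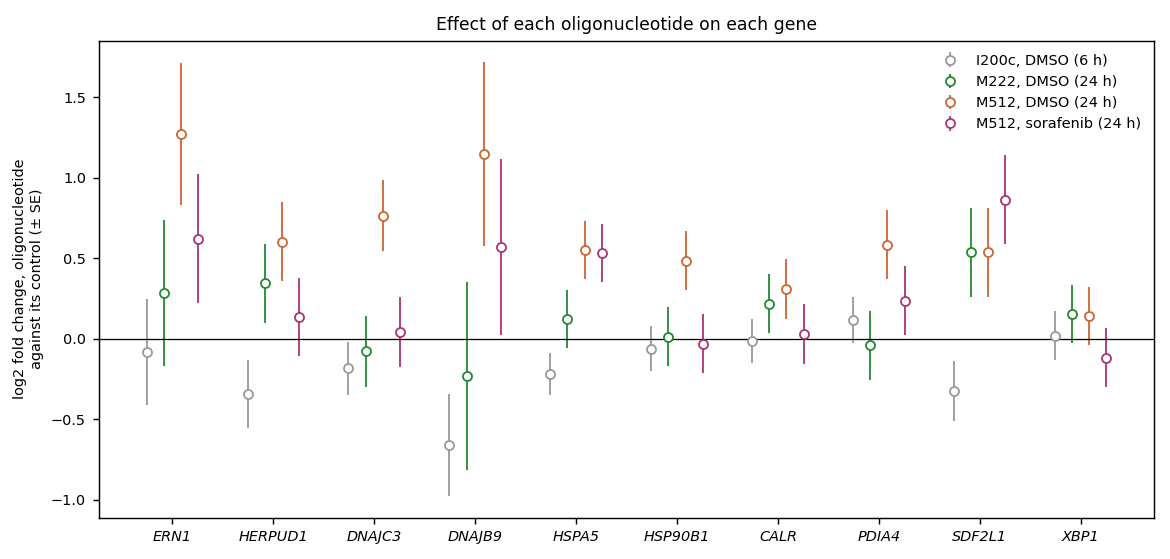
Log2 fold change of each oligonucleotide against its transfection control (vertical axis, ± SE from the edgeR fit) for each of the 10 genes (horizontal axis), with open points because none passed an adjusted p of 0.05. In DMSO the M512 points all lie above 0, from 0.14 to 1.27, while those of I200c and M222 lie on both sides.

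Whether an oligonucleotide changed the response to sorafenib was tested as its interaction with treatment. None of the 10 genes passed for I200c (0.00% of all genes), M222 (0.00%) or M512 (0.00755%) by edgeR, and DESeq2 called 0 of the 10 in each. At an unadjusted p under 0.05 there was 1 of the 10 for I200c (SDF2L1, 0.56, SE 0.26), 0 for M222 and 1 for M512 (DNAJC3). Over all genes these numbers were 413 of 12738, 260 of 13244 and 667 of 13244. In M512 the interaction was negative for 9 of the 10 genes (8 with DESeq2 or RLE scaling), with a median of -0.41 against -0.02 over all genes, SDF2L1 being the exception (0.33, SE 0.39). The MC_DMSO and M512_DMSO libraries enter both this interaction and the difference in DMSO above, so the opposite signs are not separate results.

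Counts by transfection at 24 h were as follows. In MC, 2 of the 10 genes (ERN1 and HERPUD1) were higher and 0 lower, against 2.60% of all genes called and 1.80% called higher. In M222, 3 of the 10 (ERN1, HERPUD1 and DNAJC3) were higher and 0 lower, against 4.38% called and 2.82% higher. In M512, 1 of the 10 (ERN1) was higher and 0 lower, against 9.96% called and 5.34% higher. ERN1 was thus the 1 gene of the set called in every transfection of 24 h.

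Other genes of the same compartment were taken from lists of UPR sensors, ER folding, degradation and transport, to be read against the 13.4% of all genes called higher and 12.4% called lower. Of 6 genes of the other sensors and their processing, 0 were higher and 1 was lower on average at 24 h, namely MBTPS1, the site-1 protease that cuts ATF6 (log2 fold change -0.39, SE 0.12, Benjamini-Hochberg adjusted edgeR p 0.0185). Of 13 tested genes of other ER folding factors, 3 were higher and 0 lower, namely DNAJB11 (log2 fold change 0.55), DNAJC10 (0.44) and HYOU1 (0.43), which are BiP co-chaperones and a large Hsp70-like exchange factor. Of 11 tested genes of ER-associated degradation, 4 were higher and 0 lower, with EDEM1 (0.96), a lectin that passes misfolded glycoproteins on, UBE2J1 (0.63), a ubiquitin-conjugating enzyme, and SELENOS (0.53) leading. Of 13 genes of translocation and export, 6 were higher and 1 lower, with SEC24D (0.86), SEC61G (0.75) and SRPRB (0.64) leading and SPCS3, a subunit of the signal peptidase, lower (log2 fold change -0.31, SE 0.12, Benjamini-Hochberg adjusted edgeR p 0.0497). The single lower gene of the sensor list and the 3 higher folding factors are shares near those of all genes. The medians of these 4 lists were -0.04, 0.15, 0.25 and 0.33, beside 0.22 for the 10 genes and -0.04 for all genes.

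The ATF4 arm, against which the 10 genes were set, moved further at 24 h. Both lists were chosen with earlier results of these data known, so the contrast between them is a description. Of 17 tested genes of the ATF4 arm, 14 were higher and 0 lower on average at 24 h, against 13.4% of all genes called higher. The median log2 fold change of the 17 was 1.95. The largest rises were those of PPP1R15A (3.24), the eIF2 alpha phosphatase subunit GADD34, ATF3 (3.22), a stress transcription factor, and SLC7A11 (2.91), the cystine transporter. By transfection, 12 of 17 were higher in MC, 13 in M222 and 14 in M512, against 1.80%, 2.82% and 5.34% of all genes. In the same fit HSPA5, HSP90B1, DNAJB9, SDF2L1, XBP1, PDIA4 and CALR did not pass in any of these transfections. Of the 10 genes, only ERN1 (2.35) exceeded the median of the ATF4 arm. At 6 h, 4 of 17 were higher on average, namely DDIT3 (1.34), PPP1R15A (0.86), DDIT4 (0.83) and NUPR1 (0.62), against 1.15% of all genes, while none of the 10 genes passed. The list as a whole had a median of 0.03 at 6 h, with 10 of 17 values positive and the lowest at -0.76, beside a median of 0.05 for the 10 genes, and in I200c 3 were higher and 1 lower. Promoter windows of 16 genes of the ATF4 arm were matched, of which 0 held an ERSE or ERSE-II and 3 (ASNS, ATF3 and CHAC1) held a CARE.

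**Figure D4:**
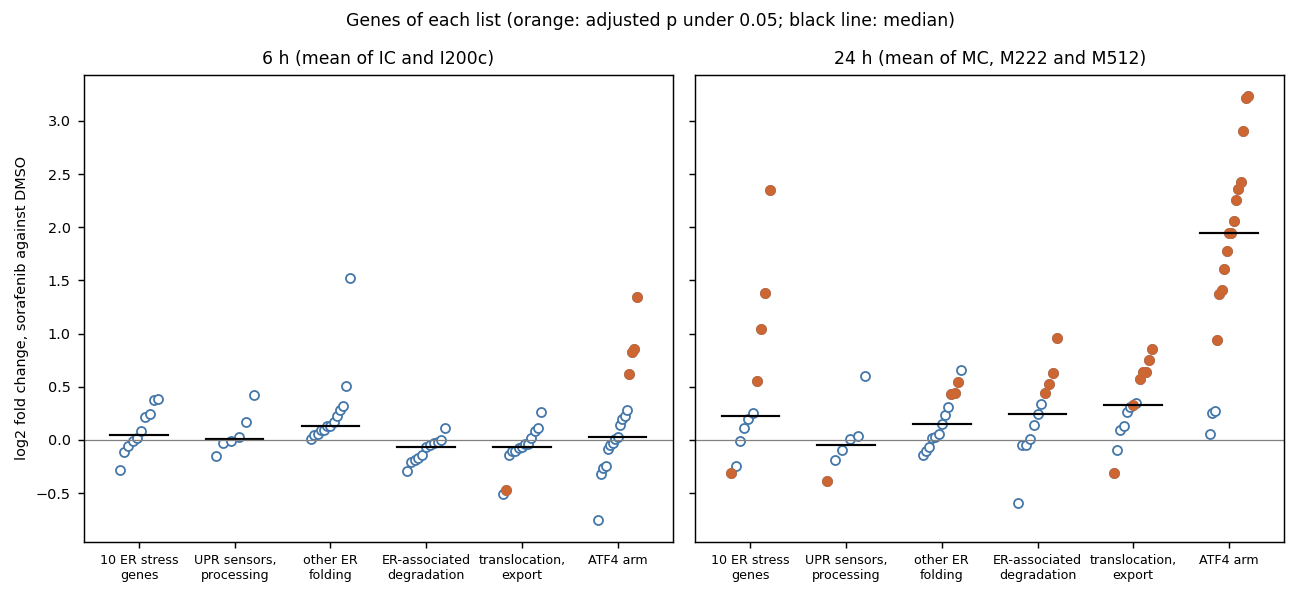
Log2 fold change of sorafenib against DMSO (vertical axis) for each tested gene (points, sorted within a list) of 6 lists (horizontal axis), averaged over the transfections of 6 h (left) and of 24 h (right), with genes at a Benjamini-Hochberg adjusted p under 0.05 in orange and the list median as a black line. At 24 h the ATF4 arm has a median of 1.95 and the 10 ER stress genes a median of 0.22, with ERN1 as their highest point.

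Across libraries, the genes that rose went together. After each library's log2 CPM was centred on the mean of its transfection, Pearson's r over the 30 libraries was 0.92 between HERPUD1 and ERN1, 0.74 between DNAJB9 and DNAJC3, 0.73 between DNAJB9 and HERPUD1, and 0.72 between DNAJC3 and ERN1. HSPA5 stood apart from them, with r of 0.24 with HERPUD1, 0.25 with ERN1, 0.27 with DNAJC3 and -0.00 with DNAJB9, and its highest r among the other 9 genes was 0.34 with HSP90B1. XBP1 ran against HSPA5 (r -0.61) and SDF2L1 (-0.63). Among all 12537 genes tested at both times, the patterns most like that of HSPA5 were those of GPT2 (r 0.80), BCL7A (0.78), GARRE1 (0.77), SSRP1 (0.77) and TCF25 (0.77), none of them among the ER lists. SELENOK, at rank 9 (r 0.75), is not on these lists either, and the lists do not hold all ER genes. The centring left the sorafenib effect in the values, and the genes that rose were named by that effect. Their r with each other, and that of HSPA5 with them, therefore partly restate it. The points also share treatment, library and depth, so these values are descriptions.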

How the data were processed

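Messenger RNA of 30 HepG2 cultures was read with QuantSeq 3′ FWD libraries. The authors aligned reads to GRCh38 with STAR, ran HTSeq-count (Bluebee pipeline) and deposited raw counts per Ensembl gene. Versions of the aligner and counter, annotation release, strand setting and molecular identifiers are not given in the sources used here, so PCR copies may be counted and floors cover counting error only. The normalised table they also deposited was not used. The 92 lines that name no gene held 3 counts (1.51e-06% of all) and were left out.

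Counts were fitted with edgeR 4.0.16 in R 4.3.3 (TMM, filterByExpr, 1 coefficient per group, quasi-likelihood F test, two-sided), with Benjamini-Hochberg adjustment over all genes tested and a threshold of 0.05. The 12 libraries of 6 h (12738 genes), the 18 of 24 h (13244) and the 12 of IC and MC (12500) were fitted apart. The SE is the size of the log2 fold change divided by the square root of F. Total counts of 3938764 to 9657063 per library put the limit for a count of 0 (3 counts) at 0.311 to 0.762 CPM. Pairs of replicates differed by more than sampling noise (chi-square per degree of freedom 4.54 to 66.2), so none was merged. Deviations of same-numbered libraries had r above 0.1 in all 3 pairs in MC_DMSO with M222_DMSO, and in no other pair of groups. Replicates are biological per the series design, but which cultures were parallel is not stated, and p-values measure the spread between these samples. DESeq2 1.42.0, other scalings, no filter, a replicate block, single transfections and leaving out each library were alternatives. Scripts were tested on simulated data.

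The 10 genes and the comparison lists were chosen with earlier results of these data known. All 10 genes are named, and from each other list up to 3 genes with the largest rise and fall among those called in the 24 h average. Gene names and positions came from GENCODE release 44 and promoter and microRNA sequences from RefSeq.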

Additional observations from a re-analysis of the deposited data

How the results depend on the processing

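No called value of the 10 genes changed direction under any alternative. Of 259 alternative values of called results, 18 lost the call, 17 of them by leaving out 1 library, and 33 uncalled values gained one. The number of the 10 genes called with sorafenib was 1 in I200c with DESeq2 and 1 with no filter on low counts (0 to 1 without 1 library), and 2 in M512 with total counts in place of TMM (1 to 1 without 1 library). In M512 against MC it was 1 in DMSO with DESeq2 and 1 with no filter, and in sorafenib 1 with no filter (0 to 1 without 1 library). For time it was 2 with DESeq2 and 2 with no filter (0 to 2 without 1 library). Leaving out 1 library gave 1 to 3 in MC, 2 to 4 in M222 and 4 to 5 for the 24 h average. CALR in that average was not called with no filter (Benjamini-Hochberg adjusted edgeR p 0.0660), and in M512 it was called with total counts (log2 fold change -0.71, 0.0129). With no filter, 3 of the 10 were called in MC and 4 in M222, DNAJB9 being added in both. DNAJB9 in M222 was called with DESeq2 (Benjamini-Hochberg adjusted p 0.0144) and within its own 6 libraries (edgeR, 0.0205). The causes were not tested.

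Total counts moved the median log2 fold change of all genes at 24 h from -0.04 to -0.17, and lowered the share of calls in the upward direction. That share was 52.1% and became 32.8% on average, with 69.5% and 50.1% in MC, 64.3% and 47.9% in M222, and 53.6% and 29.9% in M512. Directions given are therefore relative to the TMM scale. Over all genes, DESeq2 called 35 in IC, 541 in I200c, 729 in MC, 1028 in M222 and 259 for time, against 5, 291, 344, 580 and 27 with edgeR.

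Deviations of libraries with the same replicate number had r above 0.1 in 2 of 18 pairs at 6 h and 11 of 45 at 24 h. Only 1 comparison had r above 0.1 in all 3 pairs. For the others, these values do not settle whether the numbers pair the samples. All 3 r were positive in M222_DMSO with M222_sorafenib (0.0673 to 0.129) and in IC_DMSO with IC_sorafenib (0.0359 to 0.227). In MC_DMSO with MC_sorafenib they ran from -0.117 to 0.0860. In MC_DMSO with M222_DMSO all 3 pairs had r of 0.167 to 0.184, and there the replicate block called 3 of all genes, against 0 without it, and 0 of the 10. With the replicate block, 4 of the 10 genes were called in M222, DNAJB9 being added (Benjamini-Hochberg adjusted edgeR p 0.0420), 2 in MC, 1 in M512 and 5 for the 24 h average. Over all genes the block called 470 in MC, 748 in M222 and 1520 in M512, against 344, 580 and 1319 without it. At 6 h it called 2 in IC and 310 in I200c, against 5 and 291, and for time 11 against 27. ERN1 and DNAJB9 rest on as few as 16 and 22 counts in a library, so their values are the least precise.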
